A study of Homo sapiens with 6 samples.

Results

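Of the 939 library siRNA wells of a kinome viability screen in SUM149PT cells, 15 carried siRNA against kinases that phosphorylate sugars, amino sugars, glycerol, sugar-damaged proteins or vitamin cofactors rather than signalling proteins. They were taken by locus identifier from a list of 16 genes chosen by enzyme function. PANK2, the remaining gene of that list, is not analysed here. Each gene was read in 1 well per sample, so the members stand for 15 different knockdowns and are not replicates of each other. The treated cells received eicosapentaenoic acid (EPA), a long-chain omega-3 fatty acid, at 50 µM for 72 hours after 48 hours of transfection, and the other cells were left untreated. SUM149PT is a long-established human cell line from an inflammatory breast cancer of the triple-negative type, and all siRNA wells of both groups held the same line, with 45 nM siRNA and 750 cells per condition. There were 3 EPA-treated samples (replicates 4 to 6 in the deposited table) and 3 untreated samples (replicates 1 to 3). The readout is the fluorescence of a resazurin reagent that living cells reduce, in the instrument's raw units. It is not stated whether the samples of a group came from separate cultures, and the p-values cover only their spread, which could be technical. The series was made to look for a druggable kinase that could be hit together with EPA.

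These enzymes place a phosphate on a small molecule as the entry step of a pathway. Galactokinase, ketohexokinase, fucokinase and ribokinase trap galactose, fructose, fucose and ribose inside the cell, GNE and NAGK feed the synthesis and salvage of amino sugars and sialic acid, and glycerol kinase links glycerol to lipid synthesis and glycolysis. Fructosamine-3-kinases remove sugars that have attached to proteins without an enzyme. Pantothenate kinases start the synthesis of coenzyme A from vitamin B5, and pyridoxal kinase makes the active form of vitamin B6. The data hold viability signals and no RNA or protein, so neither the knockdowns nor the identity of the cell line could be checked. The siRNAs are named in the table by target gene and transcript, and their base sequences are not used here.

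The control wells set the scale for the member wells. OTP3, the negative control siRNA, read 24974 ± 2908 with EPA and 49202 ± 1292 untreated (SD, n = 3 each), so 50.8% ± 3.50 (SE) of its signal was left (p = 0.1 in a two-sided exact permutation test, which cannot go lower with 3 against 3). By plate, 54.3%, 48.4% and 49.6% of the OTP3 signal was left on plates 1, 2 and 3. Blank wells read 3888 ± 28.9 with EPA and 3738 ± 40.5 untreated. TOX, the positive control, read 3989 ± 276 with EPA and 6301 ± 3418 untreated (SD, n = 3 each), a wide spread untreated. Wells were compared as log2 fluorescence relative to the library median, the middle value of all library wells on that plate in that sample. A negative log2 value marks fewer viable cells, or less reduction per cell, than under the typical library siRNA; these cannot be told apart in this readout. Of the 15 wells, 4 lay in plate rows 1 and 16 or plate column 24, called edge wells, as did 16.9% of all library wells.

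In limma's test at an adjusted p under 0.05, 5 of the 15 members were lower than the library median with EPA and 6 were higher, while 4 did not pass. Over all 939 siRNAs 37.0% were lower and 36.4% higher, so the share of members called (33.3% and 40%) was near the background. Without EPA 6 members were lower and 5 higher, beside 35.6% and 33.9% of all siRNAs. The median member stood at 0.13 log2 units with EPA and at -0.04 untreated, against 0.03 and -0.01 over all siRNAs. The members' levels ranged from -1.87 to 1.62 with EPA and from -2.20 to 0.99 untreated. FN3KRP, GALK1, GALK2, PANK4 and FN3K were lower in both groups, and RBKS, PANK3, GK and GK2 were higher in both. Set against OTP3 in place of the library median, 9 members were lower and 2 higher with EPA (64.7% and 13.5% of all siRNAs) and 12 were lower and 0 higher untreated (91.8% and 0.532%). By limma's test with no adjustment, 0 members were higher than OTP3 untreated at p under 0.05. The higher calls above are relative to a library whose median siRNA itself lay below the negative control.

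Knockdown of FN3KRP, the fructosamine-3-kinase-related protein, gave the lowest signal of the members. Its wells, aimed at transcript NM_024619, read 4268, 3910 and 4118 with EPA, against 5145, 5071 and 5493 untreated. All 3 EPA-treated wells read lower than every untreated one, as they did for 61.7% of all siRNAs. The untreated wells stood 1433 units above the blank wells of their plate, and the EPA-treated wells only 207 units above them, with 0 of 3 EPA-treated wells more than 3 SDs of the blank wells above their mean. The level was -1.87 log2 units with EPA (SE 0.0819, adjusted p = 7.85e-08 in limma's test) and -2.20 untreated (SE 0.0819, adjusted p = 2.22e-08), the 3rd and the 5th lowest of 939 siRNAs. Of the 24 library wells within 2 rows and 2 columns of it, 0 read lower in either group.

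FN3K is the closest relative of FN3KRP in the list, and the genes are direct neighbours on chromosome 17 among protein-coding genes. The wells of FN3K, the fructosamine-3-kinase itself (NM_022158), read 10257, 8681 and 7328 with EPA, against 21658, 7044 and 9555 untreated. Untreated replicate 1 is more than 2 times each of the other untreated values, and the FN3K wells had the largest log2 SD between untreated replicates of all 939 siRNAs (0.84, against a median of 0.161). FN3KRP lay below FN3K in 6 of 6 samples, by 1.08 ± 0.225 log2 units with EPA and 1.12 ± 0.846 untreated (SD, n = 3 each). The siRNA against FN3K passed as lower than the library median in both groups (-0.79, adjusted p = 0.0129 with EPA, and -1.09, adjusted p = 0.00248 untreated, limma), though not with EPA when EPA-treated replicate 6 was left out (adjusted p = 0.0832). Its neighbourhood was low as well. The 24 surrounding library wells had a median of 7323 with EPA and 11445 untreated, close to the FN3K means of 8755 and 12752. Centred on those neighbours, FN3K stood at 0.31 with EPA (adjusted p = 0.177) and -0.02 untreated (adjusted p = 0.932), and after median polish of plate rows and columns at 0.49 with EPA (adjusted p = 0.00309, now higher) and 0.12 untreated (adjusted p = 0.465). Over 9 settings its adjusted p ran from 2.56e-05 to 0.177 with EPA and from 3.13e-07 to 0.932 untreated.

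Both galactokinase siRNAs were among the low members. GALK1 (NM_000154), the enzyme of the Leloir pathway of galactose use, read 5034, 4976 and 4355 with EPA, against 8685, 5707 and 6983 untreated. The groups did not overlap, with all EPA-treated wells lower, as for 61.7% of all siRNAs. Relative to the library median it stood at -1.65 with EPA (SE 0.119, adjusted p = 7.95e-07) and at -1.78 untreated (SE 0.119, adjusted p = 9.72e-07, limma). Like FN3KRP, it was below all 24 of its neighbouring wells in both groups. GALK2 (NM_002044), which also acts on N-acetylgalactosamine, read 7284, 6564 and 5230 with EPA, against 12078, 10672 and 9053 untreated, again with no overlap. It passed at -1.25 with EPA and -1.20 untreated (SE 0.117 each, adjusted p = 4.91e-06 and 1e-05), but 9 of its 24 neighbours with EPA and 10 untreated read lower still. Centred on the neighbours, GALK2 stood at -0.14 with EPA and -0.13 untreated (adjusted p = 0.335 and 0.402), where GALK1 stood at -0.64 and -0.83 and still passed. GALK1 was lower in both groups in 8 of 8 other settings, with adjusted p up to 0.000627, and GALK2 in 8 of 9, all but the neighbourhood one. The wells of these related genes lay 2 columns apart in plate row 10, and GALK1 was below GALK2 in 6 of 6 samples.

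The siRNAs against the other sugar kinases, RBKS, KHK and FCSK, differed in the groups in which they passed the test. RBKS (NM_022128), ribokinase, had the brightest wells of the members with EPA, at 40280, 31034 and 34625, against 41186, 35966 and 42972 untreated, and the groups overlapped. That was 159% ± 12.7 of OTP3 on its plate with EPA and 89.4% ± 5.39 untreated (SD, n = 3 each). Its well is an edge well in plate row 1. After median polish, which removes what a row shares, its level was 0.26 with EPA (adjusted p = 0.0293) and -0.10 untreated (adjusted p = 0.422), in place of 1.62 and 0.99 (adjusted p = 1.68e-07 and 6.49e-06). Centred on its 8 neighbours, RBKS stood at 1.06 with EPA (adjusted p = 4.83e-06) and at 0.16 untreated (adjusted p = 0.187, limma). Over 8 settings its adjusted p ran from 3.34e-08 to 0.333 with EPA and from 7.32e-08 to 0.422 untreated. KHK (NM_000221), which starts fructose breakdown, read 22185, 23352 and 18031 with EPA, against 29986, 22621 and 25180 untreated. It passed as higher than the library median with EPA (0.51, adjusted p = 0.00162) and stood at 0.07 untreated (adjusted p = 0.589), but at 0.03 with EPA after median polish (adjusted p = 0.845). FCSK, fucokinase (listed as FUK, NM_145059, in edge column 24), read 22581, 18183 and 15768 with EPA, against 24030, 16837 and 16122 untreated. The EPA-treated and untreated FCSK wells overlapped, with means of 18844 and 18996. Relative to the library median FCSK stood at 0.31 with EPA (adjusted p = 0.0546) and passed as lower untreated at -0.37 (adjusted p = 0.0302). That untreated call was lost without untreated replicate 2 or 3 (adjusted p = 0.161 and 0.177), and the level with EPA passed as higher without untreated replicate 1 (adjusted p = 0.0295).

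Neither amino sugar kinase siRNA passed against the library median untreated. Set against OTP3, both were lower untreated, NAGK at -1.15 and GNE at -0.89 (adjusted p = 4.15e-07 and 1.84e-05, limma). So were 91.8% of all siRNAs. The values below are relative to the library median. NAGK (NM_017567), N-acetylglucosamine kinase, read 27917, 23902 and 23217 with EPA, against 25227, 23211 and 22558 untreated. It stood at 0.76 with EPA (adjusted p = 4.14e-05) and at -0.05 untreated (adjusted p = 0.643). The NAGK well is an edge well in plate column 24, and after median polish it stood at 0.05 with EPA (adjusted p = 0.744) and -0.34 untreated (adjusted p = 0.0132), with adjusted p over 8 settings from 4.74e-05 to 0.744 and from 4.15e-07 to 0.671. GNE (NM_005476), the enzyme that starts sialic acid synthesis, read 21085, 11847 and 16311 with EPA, against 29331, 29274 and 24232 untreated. GNE was at 0.09 with EPA and 0.19 untreated (adjusted p = 0.542 and 0.216). It sat in a dim area, with a median of 8712 with EPA and 17916 untreated in its 24 neighbours, and passed as higher when centred on them (0.86 and 0.60, adjusted p = 8.06e-05 and 0.00129, with up to 0.585 and 0.272 over 9 settings).

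Both glycerol kinase siRNAs left a high signal. GK (NM_000167), the widely expressed X-linked enzyme, read 23904, 27094 and 23199 with EPA, against 43257, 38245 and 43465 untreated. GK2 (NM_033214), a relative expressed mainly in testis, read 23972, 23324 and 19578 with EPA, against 43344, 43698 and 49307 untreated. All EPA-treated values lay below all untreated ones for each gene, as they did for 61.7% of all siRNAs. GK stood at 0.72 with EPA and 0.79 untreated (adjusted p = 7.83e-05 and 5.75e-05, limma), and GK2 at 0.57 and 0.91 (adjusted p = 0.000232 and 1.07e-05). Their wells were close to the negative control. GK was at 93.7% ± 21.5 of OTP3 with EPA and 83.9% ± 6.13 untreated, and GK2 at 83.8% ± 15.0 and 91.4% ± 3.98 (SD, n = 3 each). GK exceeded 23 of its 24 neighbours with EPA and 22 untreated, and GK2, in edge column 24, exceeded 12 and 13 of its 14. After median polish GK2 stood at 0.24 with EPA and no longer passed (adjusted p = 0.118).

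The pantothenate kinase siRNAs were spread widely. PANK4 (NM_018216), a family member that is thought not to act as a pantothenate kinase, read 7761, 9777 and 9290 with EPA, against 12257, 11284 and 9398 untreated, with overlap between the groups. Its level was -0.73 with EPA (adjusted p = 0.0016) and -1.17 untreated (adjusted p = 8.62e-05), and after median polish -0.24 (adjusted p = 0.125) and -0.48 (adjusted p = 0.00509). PANK1 (NM_138316) read 17169, 17264 and 14147 with EPA, against 34575, 28043 and 29340 untreated, and PANK3 (NM_024594) read 34663, 30185 and 25764, against 36509, 36835 and 36711 untreated. Both are active enzymes of coenzyme A synthesis. For both all EPA-treated values lay below all untreated ones, as they did for 61.7% of all siRNAs. PANK3 passed as higher in both groups (1.02 and 0.58, adjusted p = 2.31e-06 and 0.000168), while PANK1 passed untreated (0.32, adjusted p = 0.0216) and not with EPA (0.13, adjusted p = 0.286). The untreated PANK1 call was lost without untreated replicate 1, 2 or 3 (adjusted p from 0.0689 to 0.0952). After median polish PANK3 still passed with EPA (0.63) but not untreated (0.20, adjusted p = 0.149). Set against OTP3, PANK3 and PANK1 were both lower untreated (-0.52 and -0.78, adjusted p = 0.000306 and 7.63e-05, limma), as were 91.8% of all siRNAs. With EPA PANK3 was higher than OTP3 (0.45, adjusted p = 0.00145) and PANK1 lower (-0.45, adjusted p = 0.00857). The PANK1 and PANK3 wells lay 2 columns apart in plate row 6. PANK1 was below PANK3 in 6 of 6 samples, by 0.89 ± 0.107 log2 units with EPA and by 0.27 ± 0.165 untreated (SD, n = 3 each). All 3 gaps with EPA were larger than all 3 untreated gaps (two-sided exact permutation p = 0.1, the smallest possible, and 0.3 adjusted over the 6 pairs of related genes compared). PANK4 minus PANK1 had the same p-values with the smaller gap under EPA, -0.86 ± 0.271 against -1.48 ± 0.165 untreated (SD, n = 3 each). PANK4 minus PANK3 was -1.75 with EPA and -1.75 untreated. Pyridoxal kinase, PDXK (NM_003681), read 18040, 8641 and 11068 with EPA, against 18875, 24972 and 28576 untreated. PDXK did not pass against the library median in either group (-0.30 and -0.04, adjusted p = 0.139 and 0.827). Untreated it passed as higher when centred on its neighbours (0.65, adjusted p = 0.00829) and after median polish (0.36, adjusted p = 0.0413). With EPA it passed in neither of these (adjusted p = 0.0801 and 0.791). Set against OTP3, PDXK was lower with EPA and untreated (-0.88 and -1.14, adjusted p = 0.000137 and 6.83e-06, limma), as were 64.7% and 91.8% of all siRNAs.

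EPA-treated minus untreated is the comparison that would show a knockdown adding to EPA. Of the 15 members, 1 passed as lower with EPA and 6 as higher relative to the plate, against 15.2% and 29.0% of all siRNAs, and 8 did not pass. The members' median difference was 0.30 log2 units and that of all siRNAs 0.20, so a typical library siRNA also stood above 0 in this comparison. Centred on OTP3, 0 members were lower and 8 higher (6.28% and 58.1% of all siRNAs), while median polish left 0 lower and 2 higher (14.8% and 16.3%). At an unadjusted p under 0.05 in limma's test, 0 members were lower with OTP3 centring and 1 after median polish. On the plain log2 scale the groups did not overlap for 7 members, with EPA-treated samples below untreated ones for 1 (18.8% of all siRNAs) and above them for 6 (36.0%).

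The member called lower was GK2, at -0.35 (SE 0.128, adjusted p = 0.0498). Of its raw signal 49.0% ± 3.66 (SE) was left, against 54.3% ± 5.11 for OTP3 on the same plate and 63.6% in the median of its 14 neighbours. The call was lost after blank subtraction (-0.31, adjusted p = 0.121) and after median polish (-0.34, adjusted p = 0.153), but passed when centred on the neighbours (-0.52, adjusted p = 0.0153), and adjusted p ran from 0.00552 to 0.863 over 9 settings. Leaving out 1 sample at a time, it stood between -0.42 and -0.28 and passed in 1 of 6 fits, the one without EPA-treated replicate 5 (adjusted p from 0.041 to 0.189). No other member passed as lower: PDXK (-0.25), PANK1 (-0.19), GNE (-0.10), GK (-0.07) and GALK2 (-0.06) had adjusted p from 0.331 to 0.798 in limma's test.

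NAGK had the largest difference among the members called higher, at 0.81 (SE 0.135, adjusted p = 0.00162). Its EPA-treated wells kept 106% ± 7.16 (SE) of the untreated signal, where OTP3 on plate 2 kept 48.4% ± 3.25 and the median of 14 neighbouring wells 87.5%. FCSK followed at 0.68 (SE 0.188, adjusted p = 0.0151), with 99.2% ± 16.9 of its signal left, against 54.3% for OTP3 on plate 1 and 65.2% in the median of its 14 neighbours. RBKS was at 0.63 (SE 0.127, adjusted p = 0.00401), with 88.2% ± 8.16 left, against 49.6% for OTP3 on plate 3 and 61.3% in its 8 neighbours. These 3 largest differences came from edge wells. After median polish NAGK stood at 0.38 and RBKS at 0.36 (adjusted p = 0.0629 and 0.0574), while FCSK, at 0.54 (adjusted p = 0.0138), still passed. Centred on the neighbours, RBKS at 0.90 and FCSK at 0.74 passed (adjusted p = 0.00106 and 0.00824, limma). NAGK, at 0.36, did not pass when centred on them (adjusted p = 0.067). Over 9 settings adjusted p reached 0.067 for NAGK and 0.307 for RBKS, and both passed in 6 of 6 fits that left out 1 sample. FCSK passed in 9 of 9 other settings, with adjusted p from 0.00105 to 0.0487, but in 4 of 6 fits that left out 1 sample (0.60 without untreated replicate 2 and 0.58 without untreated replicate 3, adjusted p = 0.0563 and 0.0504).

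The other 3 members called higher, KHK, PANK3 and FN3KRP, were not in edge wells. The PANK3 well, in plate column 23, lay directly beside the edge column. KHK was at 0.44 (SE 0.156, adjusted p = 0.041), with 81.7% ± 9.22 (SE) of its signal left, and PANK3 at 0.44 (SE 0.121, adjusted p = 0.0146), with 82.3% ± 7.01 left. The median of their neighbours kept similar shares of the untreated signal, 79.9% and 81.8%. After median polish KHK was at 0.12 and PANK3 at 0.42 (adjusted p = 0.538 and 0.0586, with up to 0.631 and 0.201 over 10 settings). PANK3 passed in 6 of 6 fits that left out 1 sample, and KHK in 1, the one without EPA-treated replicate 4 (0.55, adjusted p = 0.0179). The call for FN3KRP, 0.33 (SE 0.116, adjusted p = 0.041), compares wells that reached the blank level with EPA, where no further loss can be read. Before blank subtraction 78.3% ± 2.78 of its signal was left and after it 14.5% ± 8.20, and the log2 difference became -0.77 (adjusted p = 0.179, with 0.00367 to 0.779 over 9 settings). The -0.77 rests on EPA-treated values set to a floor of 3 blank SDs, which 0 of 3 wells exceeded. Leaving out 1 sample, FN3KRP passed in 1 of 6 fits, the one without EPA-treated replicate 4 (0.38, adjusted p = 0.0321). PANK4 (0.44, adjusted p = 0.127, but 0.69 and 0.0148 without EPA-treated replicate 4), FN3K (0.30, adjusted p = 0.5) and GALK1 (0.13, adjusted p = 0.55) did not pass. For FN3K the outcome rested on the untreated replicates: without replicate 1 the difference was 0.76 (adjusted p = 0.0181), and without replicate 2 it was -0.05 (adjusted p = 0.907).

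Since the members include edge wells and wells near the blank level, calls were also counted where they held in the same direction in 5 fits: the plain one, blank subtraction, median polish, both together and centring on neighbours. With EPA FN3KRP and GALK1 were lower and GK and PANK3 higher in all 5, 2 members each, beside 19.8% and 19.3% of all siRNAs. The FN3KRP call with EPA was near the threshold after median polish (adjusted p = 0.0485, limma). Untreated, FN3KRP, GALK1 and PANK4 were lower and GK and GK2 higher in all 5 fits, beside 18.2% and 14.7%. OTP3 centring is not among the 5 fits. With it the lower calls named here still passed, as did PANK3 with EPA (0.45, adjusted p = 0.00145, limma). GK did not pass with EPA (0.02, adjusted p = 0.886), and neither GK (-0.29) nor GK2 (-0.17) passed untreated (adjusted p = 0.0601 and 0.222). In EPA-treated minus untreated 0 members were lower in all 5, beside 9.48% of all siRNAs, and 1, FCSK, was higher, beside 6.60%. At an unadjusted p under 0.05 in limma's test, 0 members were lower and 3 higher in all 5 fits. The size of the low values moved with the setting. FN3KRP stood at -0.31 with EPA and -0.91 untreated after median polish, -1.09 and -1.81 against its neighbours, and -4.61 and -3.84 after blank subtraction. The -4.61 was set by the floor of 3 blank SDs used there, since 0 of 3 EPA-treated wells exceeded it. GALK1 stood at -0.73 and -1.17 after median polish and at -3.53 and -2.71 after blank subtraction. With EPA 2 of 3 GALK1 wells exceeded that floor.

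The same comparison was read for other metabolic kinases. Over all siRNAs 15.2% passed as lower in it and 29.0% as higher. Of 15 kinases of glycolysis 3 passed as lower (20%) and 5 as higher (33.3%), with a median difference of 0.24. Of 7 other sugar, vitamin and cofactor kinases limma called 2 higher and no other (median 0.19), and of 25 nucleotide and nucleoside kinases 3 were lower and 2 higher (median 0.17). The lowest difference was -0.35 among the members and -1.85 among the kinases of glycolysis. Differences between these lists were not tested.

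The members ranked much alike with and without EPA. Across the 15 members, which are not replicates and share their plate positions, mean log2 levels with EPA and without it had a Pearson r of 0.934 and a Spearman rho of 0.85. Without normalization or blank subtraction the share of signal left with EPA ran from 49.0% (GK2) through a median of 68.7% to 106% (NAGK). The median over all siRNAs was 68.6%. For 9 of the 15 members all EPA-treated wells read lower than all untreated ones, as they did for 61.7% of all siRNAs. For 14 of the 15 members the share left was above the one of OTP3 on the same plate, as it was for 710 of 939 siRNAs (75.6%). Blank subtraction lowered the share of every member. It left 14.5% for FN3KRP, 27.0% for GALK1, 36.3% for GALK2 and 42.5% for PDXK, all below the 44.2% of GK2. The count against OTP3 was not repeated after blank subtraction.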

How the data were processed

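The deposited table holds raw fluorescence intensity per well, per the file headers; any blank subtraction or position correction by the authors is not given in the sources used here. Per the labels' protocols, siRNA was complexed for 30 minutes before cells were added. The 1152 wells form 3 plate layouts of 16 rows and 24 columns. Each has 16 blank, 16 OTP3, 8 TOX (positive control) and 24 cells-alone wells, and 21 wells without siRNA were left out. Table columns name the group but no numbered sample of the labels. Members were found by locus identifier through RefSeq (GRCh38.p14), which matched 933 of 939 library wells, and all 15 present are named.

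Each intensity was divided by its plate's library median in that sample, and log2 of the ratio was taken without a pseudocount or a filter. A mean per group was then fitted with limma 3.58.1 (R 4.3.3; trend and robust options) over all 939 library wells and 6 samples, two-sided, with Benjamini-Hochberg adjustment over all wells. Permutation tests used SciPy 1.17.1. The fit was tested on simulated data. In EPA-treated minus untreated it recovered 98%, 86% and 46% of simulated differences of -1.5, -1.0 and -0.5 log2 units. It recovered 90% of those of 1.0, and 4.76% of all calls were false. A true difference of -0.5 was therefore often missed. The 3 samples a group and the blank level limit the precision. Neighbours are library wells within 2 rows and 2 columns. The other settings, at most 10 a result, were OTP3 centring, blank subtraction with a floor of 3 blank SDs, median polish, both, neighbourhood centring, quantile normalization, a low-signal filter (2 times the TOX level), a plain variance model, centring on the median difference and, chosen after seeing the data, leaving out edge wells. The 0.01 threshold, the linear scale and leaving out each sample were also run. Members and lists were chosen with earlier results of these data known.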

Additional observations from a re-analysis of the deposited data

How the results depend on the processing

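No paired analysis was possible because the table numbers its columns 1 to 6 through both groups, so no number is shared between them. The members counted lower and higher were 5 and 6 with EPA, 6 and 5 untreated, and 1 and 6 in EPA-treated minus untreated. With OTP3 centring they were 9 and 2, 12 and 0, and 0 and 8. The share of all tested siRNAs under the same setting follows each count below in brackets. After median polish 3 were lower with EPA (30.4%), and the difference had 0 lower (14.8%) and 2 higher (16.3%). With blank subtraction too, 3 were lower with EPA (31.0%) and 3 higher untreated (22.9%), and the difference had 0 lower (15.5%) and 3 higher (13.7%). In the difference 0 were lower with blank subtraction alone (16.5%), the plain variance model (15.0%), the linear scale (14.5%) and the 0.01 threshold (10.3%), with 2 higher at 0.01 (14.4%). Neighbourhood centring left 2 lower with EPA (31.1%), and the low-signal filter, which kept 13 members, 3 (30.7%). In the difference quantile normalization gave 2 higher (19.4%) and centring on the median difference 3 higher (14.0%), against 6 (29.0%) as reported. Without edge wells, 11 members remained, and the difference had 0 lower (15.5%) and 3 higher (25.1%). At an unadjusted p under 0.05 in limma's test, 0 or 1 members were lower wherever 0 passed. Leaving out each sample gave 4 to 5 lower and 6 to 7 higher with EPA, 5 to 6 and 4 to 5 untreated, and 0 to 1 (12.6% to 13.7%) and 3 to 7 (22.3% to 29.5%) in the difference. The next shares are for the fits without untreated replicate 1, 2 or 3 or EPA-treated replicate 4. With EPA 34.7% to 36.8% of all siRNAs were lower and 35.7% to 36.2% higher, and untreated 30.9% to 36.3% and 29.8% to 34.9%. The OTP3 signal left with EPA was 44.7% as a median over wells, 46.4% after blank subtraction and 47.4% to 52.7% when a sample was left out, against 50.8%.

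Signs turned for 49 of 447 member values in the other settings and for 8 of 270 when a sample was left out. In 25 of the 49 the value passed the test before or after the turn, and in the rest and in the 8 neither did.

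With OTP3 centring the values that turned were, with EPA, FCSK (-0.38), GK2 (-0.13), GNE (-0.60), KHK (-0.064) and PANK1 (-0.45), and untreated, GK (-0.29), GK2 (-0.17), GNE (-0.89), KHK (-1.03), PANK1 (-0.78), PANK3 (-0.52) and RBKS (-0.18). In the difference they were GALK2 (0.33), GK (0.32), GK2 (0.040), GNE (0.29), PANK1 (0.33) and PDXK (0.27). After median polish they were, with EPA, FN3K (0.49), PANK1 (-0.10) and PDXK (0.050), untreated, FN3K (0.12), KHK (-0.10), PDXK (0.36) and RBKS (-0.10), and in the difference GALK2 (0.16) and GK (0.25). With blank subtraction too, they were, with EPA, FN3K (0.86), PANK1 (-0.13) and PDXK (0.036), untreated, FN3K (0.03), KHK (-0.13), PDXK (0.43) and RBKS (-0.12), and in the difference GALK1 (-0.17), GK (0.58) and GNE (0.23). Under neighbourhood centring they were, with EPA, FN3K (0.31), NAGK (-0.055) and PDXK (0.38), untreated, PDXK (0.65), and in the difference GNE (0.26). Blank subtraction alone turned the differences of FN3KRP (-0.77), GALK1 (-0.82) and GK (0.0094), quantile normalization those of FN3KRP (-0.15) and GALK1 (-0.11), and centring on the median difference that of GALK1 (-0.015). Without edge wells untreated PDXK turned (0.058). When 1 sample was left out, the level of GNE with EPA ran from -0.034 to 0.27 and that of PDXK untreated from -0.19 to 0.19. The differences ran from -0.051 to 0.76 for FN3K, -0.026 to 0.28 for GALK1, -0.16 to 0.042 for GALK2, -0.17 to 0.030 for GK and -0.22 to 0.079 for GNE.

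OTP3 centring by construction shifts all wells of a plate in a sample by one amount. For the other settings the cause was not tested. Wells near the blank level limit what FN3KRP and GALK1 can show with EPA.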
